A study of Mus musculus with 12 samples.

Results

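Layer 5 extratelencephalic (L5 ET) neurons were picked out of single-nucleus RNA sequencing of the mouse cortex at postnatal day 21 (P21) by the transcripts they held. A nucleus counted as L5 ET when it had at most 1% mitochondrial transcripts, at least 2 unique molecular identifiers (UMIs, each standing for 1 captured transcript) of Vat1l, at least 1 of Fezf2 and at least 1 of Slc17a7, no Gad1 or Gad2, and no more than 1 of Tshz2. No upper limit was set on the UMIs of a nucleus. The rule found 53 nuclei. They made up 0.195% of the 27184 excitatory nuclei, which are the nuclei with Slc17a7 and without Gad1 or Gad2, and 0.0673% of the 78722 nuclei within the mitochondrial limit. The series as analysed here held 78743 barcodes, and no barcode was shared between libraries.

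Cortices of 12 mice were analysed: 3 WT males, 3 WT females, 3 MYT1L Het males and 3 MYT1L Het females. Het animals carried 1 copy of the S710fsX frameshift allele of Myt1l on a C57BL/6J background, and all came from breeding pairs of a WT and a Het parent. All animals of both genotypes had been injected as newborns with AAV9 carrying the calling cards constructs hyPB and H2b-tdT-SRT. By the methods, all 12 went through barcoding together on shared plates, and the deposited matrices held estimated UMI counts on mm10, not normalized. Total UMIs per animal ranged from 23429386 to 59958572.

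L5 ET neurons are the large, thick-tufted pyramidal cells of layer 5 that send the cortex's output to the spinal cord, brainstem and thalamus. Fezf2 and its effector Bcl11b, which encodes CTIP2, specify this fate during development, and the corticospinal motor neurons among them degenerate in amyotrophic lateral sclerosis. Their closest neighbours are the corticothalamic (CT) neurons of layer 6, the near-projecting (NP) neurons of layer 5 and the intratelencephalic (IT) neurons found across layers, and each of these has marker genes of its own.

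L5 ET nuclei were found in every animal, but few in each. WT males held 3, 2 and 15, WT females 3, 4 and 2, Het males 8, 1 and 1, and Het females 4, 7 and 3. The median was 3 per animal, and WT male 3 alone gave 26.6% of all UMIs summed over L5 ET nuclei. Summed UMIs per animal ranged from 15253 to 226837, with a median of 40861. Only 1 animal reached 10 nuclei, so the comparisons below used all 12 animals without a minimum, and the values of an animal rest on 1 to 15 nuclei.

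L5 ET nuclei held more UMIs than other excitatory nuclei in all 12 animals. They had from 5979 to 32025 UMIs, with a median of 15520, and from 2611 to 6473 genes, with a median of 4230. The median per animal lay between 8372 and 24486 UMIs, against 5212 to 7682 for the other excitatory nuclei of the same animal. The ratio of these medians ran from 1.15 in WT female 2 to 4.39 in Het male 2, with a median of 2.21. A typical L5 ET nucleus thus sat high among its neighbours, with the median member at percentiles 60.3 to 99.8 of the other excitatory nuclei across animals.

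The rule asks for a minimum of raw UMIs, which a nucleus with many UMIs meets more easily, so the level is a description and was not tested. Another rule asked for at least 2 UMIs of Syt6, at least 1 of Foxp2 and no Vat1l. It found 965 nuclei rich in layer 6 CT genes (Syt6/Foxp2 nuclei), whose medians per animal were 4936 to 7873 UMIs. The 336 nuclei chosen by Tshz2 and Fezf2 (Tshz2 nuclei) had medians of 5493 to 10110, and the 3504 nuclei with at least 2 UMIs of Rorb and no Fezf2 or Vat1l (Rorb nuclei) had medians of 6697 to 9078. L5 ET nuclei had the highest median of these classes in every animal but WT female 2, where Tshz2 nuclei stood at 10110 UMIs and L5 ET nuclei at 8372. All the comparison rules allowed no Vat1l UMI, which a nucleus with many UMIs meets less easily. Their medians therefore do not measure how far the L5 ET rule raised UMIs.

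**Figure D1:**
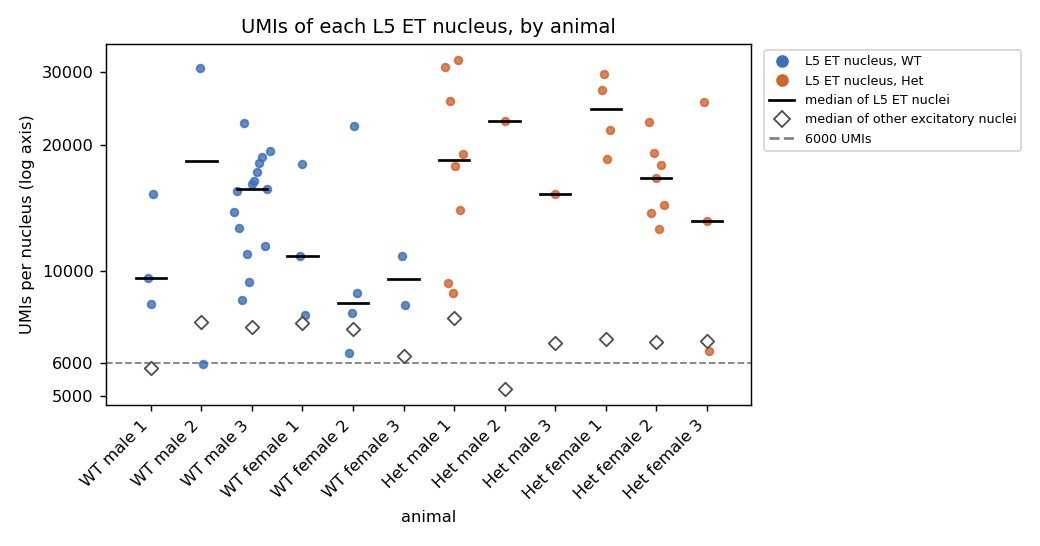
UMIs of each of the 53 L5 ET nuclei (points, log axis) in the 12 animals, with the median of the L5 ET nuclei (black bar) and of the other excitatory nuclei of the same animal (open diamond). All but 1 L5 ET nucleus, of WT male 2 at 5979 UMIs, lay above the dashed line at 6000 UMIs, and the black bar was above the diamond in every animal.

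The paper's quality control set upper limits on UMIs and genes, and a minimum for log genes divided by log UMIs. Applied to the values analysed here, the limit of 6000 UMIs removed 52 of the 53 L5 ET nuclei, or 98.1%. Among other excitatory nuclei the same limit removed 58.6%. The limit of 3000 genes removed 47 L5 ET nuclei (88.7%, against 35.2% of the others), and the minimum of 0.9 for log genes divided by log UMIs removed 51 (96.2%, against 63.3%). With all limits together 1 of the 53 was kept, beside 9241 other excitatory nuclei. This nucleus, of WT male 2, held 56 UMIs of CT marker genes and 3 of L5 ET marker genes outside the rule. The paper reports more P21 nuclei left after its limits than there were barcodes here before any limit. These percentages therefore do not give the share of L5 ET nuclei that the study lost, which was not tested.

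Large UMI totals can also come from 2 nuclei that shared a barcode. Scrublet, a doublet score, placed 3 of the 53 (5.66%) in the top 5% of their animal, against 5.01% of other excitatory nuclei. In 8 of the 53 (15.1%) at least 5 UMIs belonged to marker lists of non-neuronal or inhibitory cells. Of these 8, WT male 3 held 1, Het male 1 held 2, Het female 1 held 3 and Het female 2 held 2. Other excitatory nuclei were not counted in this way. The genotype comparison of UMIs without such nuclei is given below, and the part of doublets in the UMI totals was not tested further.

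The label was checked against 10 L5 ET marker genes that the rule did not use, among them Bcl11b, Npr3, Parm1, Tcerg1l and Bcl6. Levels are given as CPM, the UMIs of a gene in a group of nuclei scaled to a common total of 1e6 UMIs. The 10 genes together stood at 554.5 CPM in L5 ET nuclei and 171.6 CPM in other excitatory nuclei, a 3.23-fold difference. By animal the list ranged from 419.6 to 1254 CPM in WT, with a median of 518.7, and from 0 to 882.5 in Het, with a median of 545.1. It was above the other excitatory nuclei in 11 of 12 animals, and the exception was Het male 3, whose 1 nucleus held no UMI of the list and had CT genes highest.

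Nucleus by nucleus, the label held for most members and not for all. The L5 ET list was the highest of the 6 excitatory lists, each as a share of the nucleus's UMIs relative to its mean over excitatory nuclei, in 40 of 53 nuclei (75.5%), 22 of 29 in WT and 18 of 24 in Het. In 5 nuclei the NP list was highest, in 3 the CT list and in 3 the IT list, with 1 each for layer 6b and hippocampal genes. The last 2 rested on 1 UMI and on 0.5 UMI of those rarely seen lists, and the nucleus put to layer 6b also held 10 UMIs of L5 ET genes. In 4 nuclei no UMI of the 10 genes was seen, and 7 nuclei carried at least 10 UMIs of CT genes. Median UMIs were close in the 40 nuclei with the L5 ET list highest (15846) and the 13 others (15253).

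Bcl11b, the third defining marker, was seen in 38 of the 53 nuclei (71.7%). Its level by animal ran from 0 to 271.2 CPM with a median of 134.5, against 48.6 to 82.9 CPM in other excitatory nuclei, and it was higher in 11 of 12 animals. Syt6/Foxp2 nuclei held it at 143.1 CPM and Tshz2 nuclei at 142.0 CPM, next to 135.9 CPM in L5 ET nuclei, so Bcl11b set them apart from Rorb nuclei (18.6 CPM) but not from the other deep-layer classes. Crym, a crystallin of corticospinal neurons and also a listed marker, was at 27.0 CPM against 28.7 CPM. Slco2a1, seen in 3 nuclei, Lratd2, in 2, and Chrna6, in none, were too sparse to compare.

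Lists of other neuron types differed in how low they were in L5 ET nuclei. The IT list stood at 154.6 CPM against 414.1 CPM in other excitatory nuclei and was lower in all 12 animals, and Cux2, a homeobox gene of upper layers, was at 10.6 CPM against 97.7 CPM. The CT list was at 463.9 CPM against 1393 CPM, but it was above the animal's own other excitatory nuclei in 2 animals and reached 1833 CPM in WT, where other excitatory nuclei ranged from 1067 to 1446 CPM. The NP list was close, at 103.1 CPM against 129.9 CPM (0.794-fold), and higher in 3 of 12 animals. Inhibitory markers were at 32.8 CPM against 160.9 CPM, a comparison in which the exclusion of Gad1 and Gad2 applied to both sides.

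Among glial lists, that of oligodendrocytes stood at 106.3 CPM against 102.6 CPM in other excitatory nuclei, with at least 1 UMI in 37 of 53 nuclei and no more than 9 in any. The astrocyte list was at 2.34 CPM against 12.8 CPM, with 4 of its 5 genes at 0, microglial genes were at 15.2 CPM in both groups, and all 4 vascular genes were at 0. The striatal list stood at 29.9 CPM against 23.3 CPM, with 3 of 5 genes at 0.

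Levels were also summed over the nuclei just inside and just outside the Vat1l threshold. With the other terms of the rule kept, 1057 nuclei had no Vat1l UMI, 73 had 1, 26 had at least 2 but under 3, 15 had 3 to 4 and 12 had 5 or more. The L5 ET list stood at 263.8, 480.9, 593.9, 572.0 and 470.7 CPM in that order. The CT list stood at 2547, 1004, 612.7, 346.8 and 332.7 CPM, and median UMIs were 8390, 11840, 14827, 13740 and 17616.

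Summed over its nuclei, the bin with 1 Vat1l UMI held transcripts of both lists, whether or not in the same nuclei, and the bin with 2 held more CT transcripts per total than those above it. Hs3st4, a heparan sulfate sulfotransferase of layer 6 neurons, was at 814.9 CPM with 1 Vat1l UMI, 476.9 CPM with 2 and 202.7 CPM with 5 or more. Over the bins of 1, 2, 3 to 4 and 5 or more Vat1l UMIs, Npr3 stood at 64.5, 80.0, 111.6 and 94.8 CPM. Parm1 was at 99.98, 139.3, 113.7 and 60.1 CPM and Tcerg1l at 120.6, 157.4, 137.4 and 98.8 CPM, so Npr3 did not follow the order of the other two over the bins. These values describe the threshold and were not tested.

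**Figure D2:**
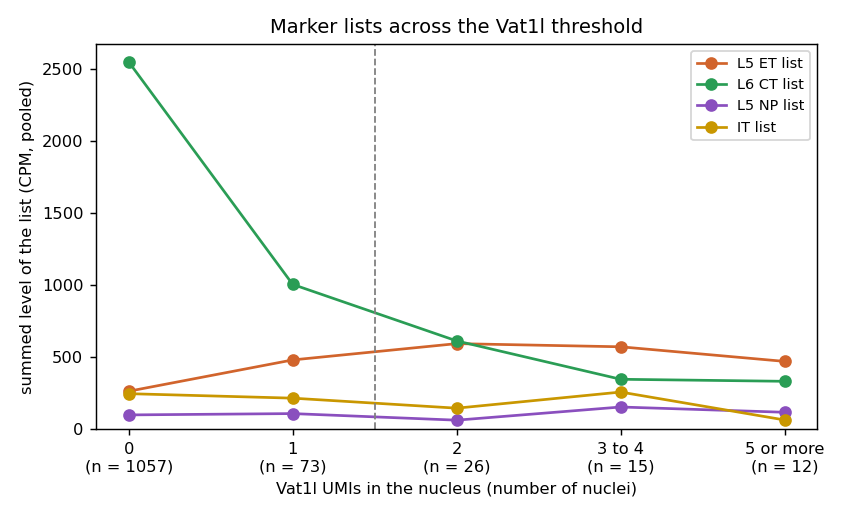
Summed CPM of 4 marker lists in nuclei binned by their Vat1l UMIs, all with Fezf2, Slc17a7, no Gad1 or Gad2 and at most 1 UMI of Tshz2. The dashed line marks the rule: to its left, 1057 nuclei without Vat1l had 2547 CPM of CT genes and 263.8 CPM of L5 ET genes, and to its right the CT list went down to 332.7 CPM while the L5 ET list stayed between 470.7 and 593.9 CPM.

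The genes that led L5 ET nuclei were then described across the transcriptome. Of 6198 genes with a UMI in at least 20% of L5 ET nuclei, 143 (2.31%) were at least 2-fold higher than in other excitatory nuclei and 101 (1.63%) at least 2-fold lower, on pooled CPM + 1. Without WT male 3 the numbers were 158 and 122, and 122 of the higher genes were found both times. Because the nuclei were chosen by their own transcripts, these ratios carry no test. Vat1l, at 223.9 CPM against 18.9 CPM, and Fezf2, at 87.9 CPM against 8.43 CPM, are high by construction.

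Outside the rule, the gene with the largest mean log2 ratio over animals was Npr3, the clearance receptor for natriuretic peptides (chr15:11839896-11907287, minus strand, mm10). Npr3 ranged over animals from 0 to 209.0 CPM with a median of 86.3 in L5 ET nuclei and from 10.7 to 21.3 CPM in other excitatory nuclei. The pooled level was 92.7 CPM against 15.2 CPM, 6.10-fold, and only Het male 3, in which no Npr3 was counted, was below its own other excitatory nuclei. With every nucleus thinned to 3000 UMIs, Npr3 was seen in 22.6% of L5 ET nuclei, 3.48% of other excitatory nuclei and 0.319% of oligodendrocyte nuclei. Before thinning these shares were 66.0%, 7.68% and 0.288%, at median depths of 15520, 6810 and 2662 UMIs. Thinning left out no L5 ET nucleus, 2602 other excitatory nuclei and 1111 oligodendrocyte nuclei.

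Adcyap1, which encodes the neuropeptide PACAP (chr17:93199017-93206537), came second at 16.4 CPM against 2.63 CPM. It rested on 14 UMIs in 12 nuclei, and 2 animals had none. After thinning, Adcyap1 was seen in 1.89% of L5 ET nuclei, near the level of 1 UMI, so its share is not read as a difference.

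Robo1, a receptor for the Slit guidance cues (chr16:72308306-73046095), was among the most abundant of the leading genes. Its level by animal ran from 524.6 to 5261 CPM with a median of 2520, against 653.6 to 906.9 CPM in other excitatory nuclei. In 11 of 12 animals L5 ET nuclei lay above the others, and the pooled ratio was 3.58. Robo1 was seen in 94.3% of thinned L5 ET nuclei, against 53.2% of other excitatory and 24.9% of oligodendrocyte nuclei.

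Ldb2, a cofactor of LIM-homeodomain transcription factors that is used as a corticospinal marker (chr5:44472132-44799680), was the most even of these genes. It ranged from 618.3 to 1256 CPM with a median of 802.7, and other excitatory nuclei from 286.1 to 416.7 CPM. The 2 ranges did not overlap over the 12 animals. The leading genes were chosen by their ratio in these animals, which favours ranges that are apart. How many of the 6198 genes have ranges apart was not counted, here or for the genes below. Pooled, Ldb2 was 2.73-fold higher than in other excitatory nuclei, but only 0.29 higher on the log2 scale than in Tshz2 nuclei (935.3 against 763.6 CPM).

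Pdzd2, a protein with PDZ domains (chr15:12359711-12739924), also separated without overlap, at 271.2 to 818.5 CPM with a median of 421.1 against 121.2 to 219.2 CPM. Chst8, a sulfotransferase that acts on N-acetylgalactosamine, ran from 65.6 to 261.3 CPM, median 184.3, against 37.3 to 52.5 CPM. The ranges of Chst8 were apart as well.

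Parm1, a mucin-like membrane protein used as an L5 ET marker (chr5:91517615-91626894), stood at 110.8 CPM against 23.2 CPM pooled and was higher in 11 of 12 animals. It was seen in 32.1% of thinned L5 ET nuclei and 5.28% of other excitatory nuclei, but in 43.7% of oligodendrocyte nuclei. Tox, an HMG-box nuclear protein (chr4:6686353-6991557), was at 936.3 CPM against 164.6 CPM and stood closest to Tshz2 nuclei at 520.2 CPM. By animal Tox ran from 0 to 1467 CPM, and it was higher in 10 of 12 animals. Tcerg1l was at 136.0 CPM against 21.7 CPM, Tmem150c at 140.1 CPM against 47.3 CPM and Gm19410 at 206.4 CPM against 37.8 CPM. Tshz2 nuclei held Parm1 at 59.5 CPM, Tcerg1l at 52.1 CPM, Tmem150c at 71.9 CPM and Gm19410 at 45.8 CPM. The log2 ratios of Parm1 and Tmem150c to Tshz2 nuclei, 0.89 and 0.95, were under the 2-fold mark.

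Pairs of leading genes or markers share annotation. Gm2164 (chr4:124528924-124657169, minus strand), annotated as antisense, stood at 432.7 CPM in L5 ET nuclei against 59.7 CPM in others, 137.3 CPM in Tshz2 nuclei and 7.48 CPM in Syt6/Foxp2 nuclei. Its 5′ end overlaps Pou3f1 (chr4:124656807-124660655), a POU-domain factor on the L5 ET list, which held 11 UMIs in 8 nuclei. Gm12296 (chr11:66168035-66301237, plus strand), at 66.3 CPM against 10.6 CPM, in turn overlaps the 5′ end of Dnah9 (chr11:65831282-66168551, minus strand), an axonemal dynein gene at 185.9 CPM against 47.7 CPM. Whether counting used strand is not given in the sources used here, so reads within these overlaps cannot be assigned with certainty.

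**Figure D3:**
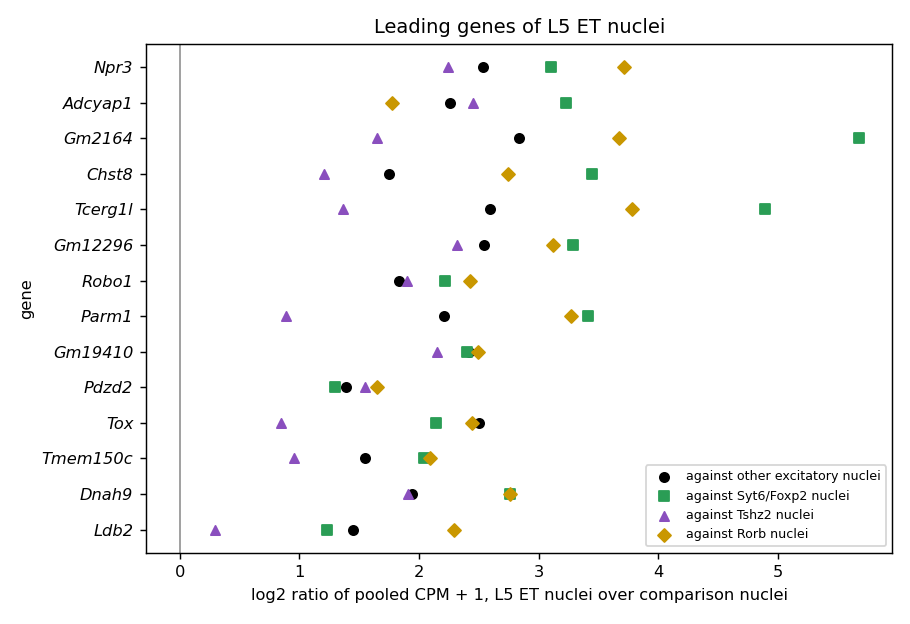
Log2 ratio of pooled CPM + 1 between L5 ET nuclei and 4 comparison groups for 14 of the 15 leading genes, ordered by their mean log2 ratio to other excitatory nuclei over animals. All points lie to the right of 0. Ldb2 was 0.29 above Tshz2 nuclei, while Gm2164 was 5.68 and Tcerg1l 4.90 above Syt6/Foxp2 nuclei. Against Tshz2 nuclei Gm2164 was 1.65 and Tcerg1l 1.37 above.

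Gene groups known from these neurons were then read against the same background of 2.31% higher and 1.63% lower. Of the 12 listed L5 ET markers, 8 passed the 20% detection limit and 7 of these were at least 2-fold higher, but Vat1l and Fezf2 among the 7 are high by the rule. Among projection neuron transcription factors 12 of 18 were detected. Fezf2, which the rule required, Bcl6, Sox5 and Bcl11b were at least 2-fold higher, and Cux1, Foxp2 and Rorb at least 2-fold lower. Sox5, which times the production of deep-layer neurons, ran from 932.4 to 1821 CPM with a median of 1415, clear of the 561.8 to 664.2 CPM of other excitatory nuclei in all 12 animals. Bcl6 rested on 29 UMIs, at 34.0 CPM against 9.36 CPM. Cux1, an upper-layer homeobox gene, was at 54.7 CPM against 179.9 CPM and lower in all 12 animals.

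Corticospinal development genes had a median above that of all genes, both on pooled levels and on the mean over animals. Of 14 genes 9 were detected, 4 were at least 2-fold higher and none 2-fold lower, with a median log2 ratio of 0.91 over the 9, against -0.02 over all 6198 genes. The median of the mean log2 ratio per animal was -0.06, against -0.88 over all 6198 genes, and detection was set by L5 ET nuclei alone. Beside Ldb2 and Bcl11b the genes past the 2-fold mark were Cdh22, a cadherin, at 103.4 CPM against 33.5 CPM, and Ntng1, netrin-G1, at 416.1 CPM against 203.0 CPM. Both were higher in 11 of 12 animals. Crim1, which guides corticospinal axons, was at 139.6 CPM against 86.2 CPM, under the 2-fold mark.

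Excitability channels, of which 23 were detected, held genes that were higher and genes that were lower in L5 ET nuclei. Cacna1h, a T-type calcium channel, stood at 32.8 CPM against 9.88 CPM, and Kcnn2, an SK potassium channel, at 399.9 CPM against 197.1 CPM. Kcnh1, an EAG potassium channel, was lower, at 145.0 CPM against 309.7 CPM. Of the 23, 3 were at least 2-fold higher, Cacna1h and Kcnn2 among them, and only Kcnh1 was at least 2-fold lower, and the median log2 ratio of the 23 was -0.02.

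Receptors for modulators and glutamate were read in the same way. Of 11 detected neuromodulator receptors, Npr3 and Adra1a were at least 2-fold higher and none 2-fold lower. Adra1a, the alpha-1A adrenergic receptor, stood at 78.9 CPM against 18.6 CPM and was higher in 10 of 12 animals. Of 19 detected glutamate receptor and scaffold genes, 1 was at least 2-fold higher and 1 at least 2-fold lower, with a median log2 ratio of 0.02. The kainate receptor genes Grik2 and Grik4 pointed opposite ways. Grik2 ran from 961.9 to 3971 CPM with a median of 2085, against 1004 to 1184 CPM, and Grik4 was at 95.5 CPM against 202.4 CPM.

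Axon guidance genes split, with 2 of 18 detected genes at least 2-fold higher and 4 lower. Beside Robo1, Sema6d, a transmembrane semaphorin, was at 769.5 CPM against 321.5 CPM. Unc5d, a netrin receptor of upper-layer and layer 4 neurons, was at 151.3 CPM against 796.9 CPM and lower in every animal. Dcc, Slit1 and Plxna4 were also lower, at 348.6 CPM against 772.4 CPM, 41.0 CPM against 106.4 CPM and 226.4 CPM against 456.2 CPM.

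Genes of the axonal cytoskeleton, for which these long-axon cells are often noted, did not stand apart at the level of nuclear RNA. None of 14 detected genes was 2-fold higher or lower, and the median log2 ratio was -0.02. Nefm, a neurofilament subunit, was at 25.8 CPM against 13.4 CPM from 22 UMIs, and it was higher in 5 of 12 animals. Kif5a, a kinesin of axonal transport, was at 132.5 CPM against 88.2 CPM, and Kif5c was lower in all 12 animals at 189.4 CPM against 237.8 CPM. None of the detected 4 immediate early genes, 4 immature neuron genes and 10 motor neuron disease genes reached 2-fold in either direction.

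The genotype comparison began with the targeted gene. Myt1l was seen in 52 of 53 L5 ET nuclei and stood at 901.1 CPM, against 993.9 CPM in other excitatory nuclei. By animal it ran from 241.9 to 875.3 CPM in WT, with a median of 696.3, and from 512.4 to 1846 CPM in Het, with a median of 1007. The groups overlapped and 5 of 6 Het animals were above the WT median. The log2 fold change of Het over WT was 0.59 ± 0.32 (SE, n = 6 and 6), with an adjusted p of 0.995 in edgeR's quasi-likelihood test with Benjamini-Hochberg adjustment over 635 genes. It was 0.39 without Het male 3, whose 1 nucleus had CT genes highest, and 0.25 in nuclei with at least 1 Vat1l UMI.

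In other excitatory nuclei the log2 fold change of Myt1l was 0.10 (edgeR, adjusted p = 0.713) and in Syt6/Foxp2 nuclei 0.13 (edgeR, adjusted p = 0.870). UMIs do not separate the frameshift allele from the intact one, so these levels do not check the genotype labels.

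The share of L5 ET nuclei among excitatory nuclei did not differ between genotypes by more than the spread between animals. It ran from 0.0893% to 0.458% in WT with a median of 0.205%, and from 0.0424% to 0.361% in Het with a median of 0.115%. The highest animal was WT male 3 (95% Clopper-Pearson interval 0.257 to 0.754%) and the lowest Het male 2 (0.00107 to 0.236%), and the groups overlapped over most of their range. These intervals cover counting error only. Means were 0.216% ± 0.133 and 0.169% ± 0.144 (SD, n = 6 each), a difference of -0.0466 percentage points (95% interval -0.230 to 0.132) with p = 0.565 in an exact two-sided permutation test over 924 relabellings of animals.

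Within males the difference was -0.111 (exact permutation p = 0.5) and within females 0.0177 (exact permutation p = 0.9), where 3 animals against 3 cannot give a p below 0.1. The interaction with sex had a permutation p of 0.42. Without WT male 3 the difference was 0.00192. With each nucleus first thinned to 5000 UMIs only 9 nuclei, 8 of them WT and 1 Het, met the rule in a draw, and the difference of -0.123 then passed the exact permutation test at p = 0.00216, the smallest it allows. Averaged over 1000 draws it was -0.0424 (exact permutation p = 0.0152), from 6.15 nuclei per draw on average.

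**Figure D4:**
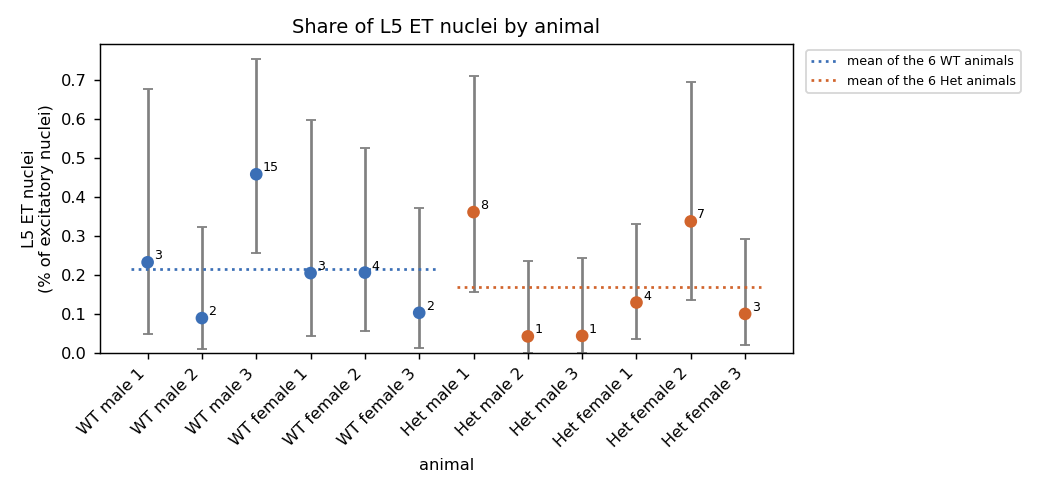
Share of L5 ET nuclei among excitatory nuclei in each animal (points, with the number of L5 ET nuclei) and its 95% Clopper-Pearson interval, with the mean of 6 animals per genotype (dotted). The means were 0.216% in WT and 0.169% in Het, and the points of the genotypes overlapped.

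UMIs per L5 ET nucleus were higher in Het animals before correction for the tests made. The median per animal ran from 8372 to 18338 in WT with a median of 10217, and from 13143 to 24486 in Het with a median of 17602. All 6 Het animals were above the WT median, and the ranges overlapped. The Het to WT ratio was 1.56 (95% interval 1.07 to 2.25) with p = 0.0238 in an exact two-sided permutation test, and 0.0714 after Benjamini-Hochberg adjustment over the 3 tests of this kind, which does not pass 0.05. These 3 include the share above 6000 UMIs given below, whose p could not vary, so the adjusted value depends on counting that test.

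The other excitatory nuclei of the same animals did not lean this way, with medians of 5831 to 7543 UMIs in WT and 5212 to 7682 in Het, and a log2 difference of -0.06 (exact permutation p = 0.550). Divided by them, the ratio between genotypes was 1.63 (exact permutation p = 0.0173), a comparison that was not planned and whose p was not adjusted. The rule set a minimum of raw Vat1l and Fezf2 UMIs for L5 ET nuclei and not for the others. In L5 ET nuclei Vat1l ran from 109.1 to 436.8 CPM over WT animals and from 87.4 to 223.6 CPM over Het animals. Fezf2 ran from 81.8 to 136.3 CPM in WT and from 43.7 to 95.2 CPM in Het. The part of this minimum in the genotype difference was not tested. The undivided log2 difference was 0.41 within males (exact permutation p = 0.4) and 0.88 within females (exact permutation p = 0.1, the smallest possible), and the interaction with sex had a permutation p of 0.33. With only the 40 nuclei whose L5 ET list was highest, the log2 difference was 0.42 and the exact permutation p = 0.253. In nuclei with at least 1 Vat1l UMI it was 0.16 (exact permutation p = 0.390). Leaving out the nuclei with the highest Scrublet scores gave 0.62 (exact permutation p = 0.0303, not adjusted). Leaving out those with 5 or more UMIs of inhibitory or non-neuronal markers gave 0.59 (exact permutation p = 0.0281, not adjusted).

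The share of L5 ET nuclei above 6000 UMIs was 91.7% on average in WT and 100% in Het animals, which rests on 1 WT nucleus (exact permutation p = 1). With only 1 animal apart, every relabelling gives a difference of the same size, so this test could not find one.

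No gene passed the threshold for a difference between genotypes in L5 ET nuclei. Of 635 genes tested, 0 (0%) had an adjusted p under 0.05 with an absolute log2 fold change over 0.2 in edgeR, and 24 (3.78%) had an unadjusted p under 0.05. DESeq2, on its own 16887 genes without that filter, also called 0, with 137 at an unadjusted p under 0.05. Of the 635 fold changes 298 were positive and their median was -0.02, a balance that the scaling between libraries itself sets near 0.

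The genes with the smallest p in each direction are given as values, all with an adjusted p of 0.995 in edgeR. Elmo1, which activates Rac with DOCK proteins in cell migration, ran from 300.9 to 2927 CPM in WT with a median of 577.1, and from 0 to 334.2 CPM in Het with a median of 253.1. No Het animal was above the WT median, and the 2 ranges overlapped at their edge. The log2 fold change was -2.04 ± 0.56 (SE). Without WT male 2, which held 2 L5 ET nuclei and the highest level, it was -1.28, and in nuclei with at least 1 Vat1l UMI -1.15. Without a filter on low counts Elmo1 passed, at -1.87 with an edgeR adjusted p of 0.0223.

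Mdga2, a synaptic adhesion inhibitor, ran from 2479 to 6538 CPM in WT with a median of 3201 and from 1647 to 2966 CPM in Het with a median of 2294, a log2 fold change of -0.78 ± 0.25 (SE). All Het animals were below the WT median. Tenm3, a teneurin of synaptic wiring, had a log2 fold change of -1.28 ± 0.47, Oxr1, an oxidation resistance gene, -0.75 ± 0.26 and Gm42418, a gene model within ribosomal RNA sequence, -0.79 ± 0.27. In the positive direction were Ptk2b, the kinase Pyk2, at 0.75 ± 0.25, Map1b, a microtubule protein, at 0.76 ± 0.34, Zswim6 at 0.67 ± 0.29, Ptprj, a receptor phosphatase, at 0.61 ± 0.25 and Akap6, an anchor of protein kinase A, at 0.61 ± 0.25. In nuclei with at least 1 Vat1l UMI all of these values were nearer to 0. Mdga2 was then at -0.52, Tenm3 at -0.61, Oxr1 and Gm42418 at -0.46, Zswim6 at 0.46, Map1b at 0.40, Ptk2b at 0.38, Ptprj at 0.11 and Akap6 at -0.02. With at least 3 Vat1l UMIs Tenm3 was at -3.09, Gm42418 at -0.29 and Map1b at 0.43. Tenm3 was at -2.14 without the nuclei holding 5 or more UMIs of inhibitory, glial or vascular markers.

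The gene groups gave the same result. No gene of any list was called, out of 14 excitability channels, 12 glutamate receptor and scaffold genes, 5 cytoskeleton genes, 5 guidance genes, 3 projection neuron transcription factors and 3 corticospinal genes tested. Their median log2 fold changes were -0.04, -0.20, 0.15, -0.15, -0.16 and -0.03, and that of all 635 genes was -0.02. Only Map1b and Scn2a, a sodium channel at -0.55 ± 0.25, had an unadjusted p under 0.05 in edgeR (0.0417 and 0.0422). Robo1 was at -0.32 ± 0.41, Ldb2 at -0.03 ± 0.25 and Sox5 at -0.16 ± 0.24.

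None of the L5 ET or other cell type markers passed the filter on low counts. The genotype effect differed between the sexes for 0 of 635 genes (edgeR, 14 at an unadjusted p under 0.05). It differed between L5 ET and Syt6/Foxp2 nuclei for 0 of 2938 genes (edgeR, 78 at an unadjusted p under 0.05).

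Between the sexes, 1 of 635 genes (0.157%) was called in L5 ET nuclei. This was Rgs6, a regulator of G protein signalling (chr12:82588292-83162056, plus strand, mm10). Rgs6 ran from 246.2 to 877.2 CPM in males with a median of 467.4, and from 0 to 200.5 CPM in females with a median of 53.1. The sexes did not overlap, which also held for another tested gene that was not called. The share of the 635 genes that separate the sexes in this way was not counted. The log2 fold change of female over male was -2.89 ± 0.37 (SE, n = 6 and 6), with an adjusted p of 8.9e-04 in edgeR. Rgs6 passed the filter on low counts through the males alone, so this p depends on how the 635 genes were chosen.

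Since all males lay above all females, the same held within each genotype, which adds no separate support. WT males lay at 246.2 to 362.8 CPM and WT females at 0 to 54.7 CPM, and Het males at 572.0 to 877.2 CPM and Het females at 51.5 to 200.5 CPM. By nucleus, 20 of 30 male nuclei (66.7%) and 9 of 23 female nuclei (39.1%) had an Rgs6 value above 0, which in 1 of the male nuclei was 0.333 UMI, at median depths of 15631 and 14401 UMIs. At least 10 UMIs were held by 10 male nuclei, in 4 animals, and by 0 female nuclei.

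Other excitatory nuclei of the same animals did not show this pattern, with 740.0 to 1054 CPM in males and 750.8 to 1048 CPM in females (log2 fold change -0.04, edgeR adjusted p = 1.0). In Syt6/Foxp2 nuclei the log2 fold change was 0.08. The difference of the sex effect between L5 ET and Syt6/Foxp2 nuclei, tested after Rgs6 had been seen, was -2.70 ± 0.46 (SE, edgeR adjusted p = 0.00645), and Rgs6 was the only gene of 2938 called. That fit used the same L5 ET sums that picked Rgs6 out, so it is no separate support.

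The separation depended on which nuclei entered, given here as values with no test, since Rgs6 was picked out for its sex difference in these nuclei. With only the nuclei whose L5 ET list was highest, in 11 animals, males ran from 293.2 to 874.2 CPM and females from 0 to 199.9 CPM, again without overlap. With at least 1 Vat1l UMI males ran from 342.8 to 786.2 CPM and females from 141.8 to 544.2 CPM, and with at least 3, in 9 animals, from 150.4 to 527.8 CPM and from 0 to 458.5 CPM, so the sexes overlapped in both. Without WT male 3 or without Het male 1 the filter on low counts left Rgs6 out of the test. With no filter and each animal left out in turn, the log2 fold change stayed between -3.07 and -2.61, in fits that share most of their animals.

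**Figure D5:**
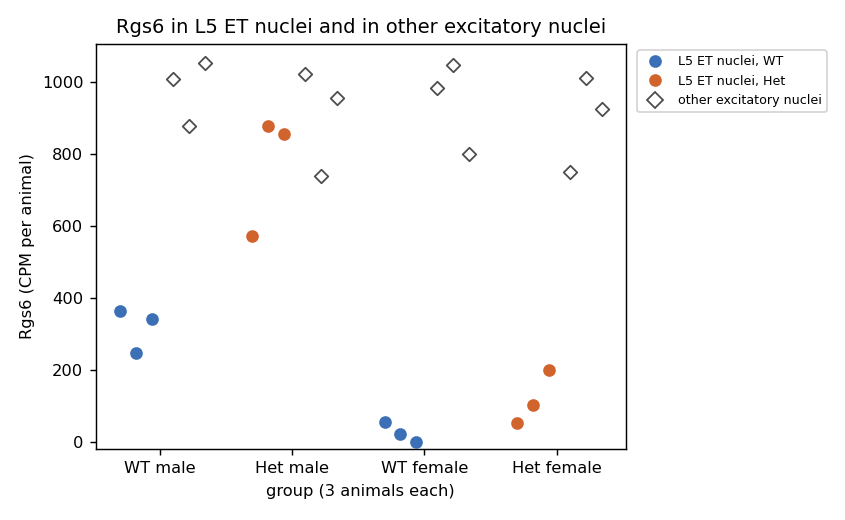
Rgs6 level in CPM in each animal, in L5 ET nuclei (filled circles) and other excitatory nuclei (open diamonds), with 3 animals per group. Male L5 ET nuclei lay at 246.2 CPM or above and female ones at 200.5 CPM or below, while other excitatory nuclei lay between 740.0 and 1054 CPM in both sexes.

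The sex labels could be read in the same nuclei without the filter. Xist gave 53 UMIs, all in females, in 5 animals, and Uty gave 53 UMIs, all in males, in 6 animals.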

How the data were processed

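Nuclei of 12 cortices were barcoded with the Scale Biosciences kit. The authors mapped reads to mm10 and counted UMIs per gene and nucleus with ScaleRna, and called nuclei with CellFinder. The deposited values are estimated counts without normalization: 92.6% of entries were whole and the rest were fractions. The processing notes also name Seurat 4.3.0 and DESeq2 1.38.3. The paper's quality control took out multiplets with DoubletFinder. Whether this had been done before the matrices were deposited is not known, and no doublets were removed here.

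L5 ET nuclei, their marker lists and the tests were chosen with earlier results of these data known. TDTOMATO was left out of library sizes and tests. UMIs were summed per animal over L5 ET nuclei and rounded, since the values were not all whole. Sums were tested with edgeR 4.0.16 (TMM, filterByExpr, robust quasi-likelihood) in R 4.3.3, with genotype as the only term, and genotype and sex for the sex comparison. DESeq2 1.42.0, gate thresholds, thinning, no filter on low counts and each animal left out were alternatives. A planned minimum of 10 nuclei per animal left 1 animal and was dropped after the counts were seen. Shares and median UMIs were tested by exact permutation of animals (scipy 1.17.1). P-values are two-sided. Doublets were scored with Scrublet in scanpy 1.11.5. Positions come from GENCODE, which matched 54587 of 55335 gene identifiers. Scripts were tested on simulated counts.

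Named genes were Myt1l, genes of the rule and marker lists, the 15 leading genes, called genes, the 5 with the smallest p in each direction where none was called, and the extreme genes of each list. Members of counts of 5 or fewer are also named, chosen after their values were seen. The results of some genes are not reported here.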

Additional observations from a re-analysis of the deposited data

Results flagged for a closer look

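Values within each genotype were screened for an animal far from the other 5, by Dixon's ratio of gap to range (above 0.625 for 6 animals). Of 62 groups of values 6 passed, and chance alone passes about 1 in 20. WT female 3, which held 2 L5 ET nuclei, gave 3 of them. Its L5 ET nuclei had 209.0 CPM of Npr3, against 110.4 CPM in the next WT animal, 470.3 CPM of Parm1, against 108.0 CPM, and 836.1 CPM of Dnah9, against 241.0 CPM. Bcl11b was at 271.2 CPM in WT male 1, with 3 nuclei, and 163.6 CPM in the next animal. Elmo1 was at 2927 CPM in WT male 2, with 2 nuclei, and 1102 CPM in the next. In WT male 2 the share of L5 ET nuclei over 6000 UMIs was 50%, against 100% in the other WT animals. All of these animals held 2 or 3 L5 ET nuclei, and the part of this small number was not tested.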

How the results depend on the processing

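The share of L5 ET nuclei kept its direction and did not pass in most settings. It was 0.0162 percentage points with at least 3 Vat1l UMIs. In nuclei of at least 5000 UMIs thinned to 5000 it was -0.123 (exact permutation p = 0.00216), and -0.0424 (exact permutation p = 0.0152) as the mean of 1000 such draws. With an animal left out it lay between -0.0850 and 0.00192, positive only without WT male 3. The log2 difference in median UMIs was 0.156 with at least 1 Vat1l UMI (exact permutation p = 0.390), 0.632 with Bcl11b required (exact permutation p = 0.0736), 0.618 without the 2 animals with 1 nucleus (exact permutation p = 0.0524) and 0.421 with the L5 ET list highest (exact permutation p = 0.253). With an animal left out it was 0.548 to 0.775 (exact permutation p of 0.0130 to 0.0455). The cause of these changes was not tested.

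Without a filter on low counts edgeR called 3 of 16889 genes between genotypes: Elmo1, Npsr1 (24 UMIs, 17 of them in WT male 1) and Htr2c (26 UMIs in 3 Het animals). Between the sexes it then called 8, among them Rgs6, Chst9 and 5 genes of the sex chromosomes, and with an animal left out and the filter kept 0 to 1. Akap6 reversed to -0.0235 with at least 1 Vat1l UMI. Of 225 alternative values of the 11 genes named for genotype, 223 kept their direction and side of the threshold, although all but Zswim6 moved by over 1.5 times in some setting. With the limits on UMIs, genes and their log ratio applied here, 1 nucleus remained, in which the CT list was highest. No test of UMIs or genes could then be made.

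Replicate numbers did not pair the animals: correlations of same-numbered animals over 635 genes were -0.052 to 0.136, and 4 of 12 animals correlated best with their own number. With the replicate block the log2 difference in median UMIs was 0.642 (exact sign-flip permutation p = 0.0625), the share difference was unchanged at -0.0466 (exact permutation p = 0.781), and edgeR called 0 genes, with 21 at an unadjusted p under 0.05. Few nuclei per animal limit every value, since 2 animals rest on 1 nucleus each.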

Other observations

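TDTOMATO, the transcript of the injected construct, had a UMI in 46 of 53 L5 ET nuclei (86.8%), and in 46.8% to 77.5% of other excitatory nuclei across animals. L5 ET nuclei held more UMIs, and these shares were not matched for depth.

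Without a filter on low counts, Chst9, a sulfotransferase related to Chst8, had 26 UMIs in L5 ET nuclei, 25 of them in 3 females.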
